A study of Mus musculus with 12 samples.

Results

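Hemopexin carries free heme in plasma and haptoglobin carries free hemoglobin, and the heme-hemopexin complex is taken up largely in the liver. Heme taken up by cells is opened by heme oxygenase, the released iron is held in the ferritin shell of light and heavy chains, and free heme or iron is countered by glutathione, peroxidase and metallothionein genes. Here the liver RNA of mice without both proteins (HpHx-null) was set against that of mice without haptoglobin alone (Hp-null), which asks what the loss of hemopexin adds once haptoglobin is already missing. The comparison used the 4 HpHx-null and the 4 Hp-null arrays of a series of 12. It covered 1765 clones with at least 3 values on each side, of 2151 clones with any value. Of these 1765 clones, 852 carried 1 gene symbol (777 genes), 55 an entry that joins several genes, and 858 none.

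The series used 2-colour spotted cDNA arrays, on each of which a pool of null liver was hybridised with a pool of wild-type liver. The animals were littermates from F1 parents heterozygous for both genes (Hp+/-Hx+/-) on the mixed background C57/BLJ6 X 129Sv. The genotypes were Hp-/-Hx+/ for Hp-null, Hp-/-Hx-/- for HpHx-null and Hp+/Hx-/- for the Hx-null arrays, which entered the fit to help estimate the spread. Both groups compared thus lack haptoglobin, and no treatment is named for either. Each pool held livers of at least 5 adult mice, rinsed by perfusion with saline through the aorta, and the wild-type pool came from Hp+/Hx+/ animals. The labels name no second pool of a genotype, so the 4 arrays of a genotype were taken as repeated measurements of 1 pool, and every SE and p below measures the spread between arrays, not between mice. The wild-type pool is common to both sides and drops out of the difference.

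A deposited value is taken as a log2 ratio of the null pool over the wild-type pool, centred on the median of its array, and a difference is the HpHx-null value minus the Hp-null value. Neither the direction of the ratios nor the base of the logarithm is settled by the sources used here. The labels give the null pool Cy5 on replicates 1 and 2 and Cy3 on replicates 3 and 4, yet arrays with the same labelled dye ran against each other: Hp-null replicates 1 and 2 correlated at -0.56 over clones and HpHx-null replicates 1 and 2 at -0.65. The arrays instead fell into 2 blocks along a first component with 72.0% of the sum of squares. Block 1 held Hp-null replicates 2 and 3 and HpHx-null replicates 1 and 4. Block 2 held Hp-null replicates 1 and 4 and HpHx-null replicates 2 and 3. The arrays carried this pattern at unequal strength, with loadings of -0.42 for Hp-null replicate 4 and -0.12 for HpHx-null replicate 3, and its part in the differences was tested only by a fit with the loadings in place of the blocks, given below for the results it moves most. Gene names rest on an inferred reversal of the spot numbering. No probe of the annotation names either deleted gene, so the genotypes could not be checked on them. Of the hepatocyte markers, Serpina1e, Ttr, Alb and Apoa1 were measured.

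No clone passed the test. With a term for array block, 0 of 1765 clones (0%) had an adjusted p under 0.05 (limma, Benjamini-Hochberg), and the lowest adjusted p was 0.12. With a term for the labelled dye, 0 of 1765 (0%) passed as well, with a lowest adjusted p of 0.99. The block term gave 233 clones with an unadjusted p under 0.05, where 88.25 would be expected if no clone differed and clones were independent, and the dye term gave 39. Of the 233, 163 were higher in HpHx-null (9.24% of the clones tested) and 70 lower (3.97%). With 1 of the 12 arrays left out and at least 2 values per side asked for, which changed the set tested, the 233 ranged from 156 without Hp-null replicate 4 to 448 of 2001 clones without Hp-null replicate 3. It was 326 of 1856 without HpHx-null replicate 1 and 158 of 1955 without HpHx-null replicate 3, of which 108 were higher. The median SE of a difference was 0.13 with the block term and 0.25 with the dye term.

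The differences were small for most clones. Their median was -0.01, with a 5th to 95th percentile range of -0.23 to 0.50, and 46.9% lay above 0. The 95% interval lay inside a 2-fold difference for 1709 clones (96.8%) with the block term and for 1146 (64.9%) with the dye term. Estimates passed 1.5-fold for 53 clones, all of them higher in HpHx-null. The higher side therefore reached further: the 163 clones ran from 0.28 to 1.08 and the 70 lower ones from -0.40 to -0.20. Apart from the fit, 227 clones were apart in both blocks, meaning that every HpHx-null value of a block lay on 1 side of every Hp-null value of that block; 102 were higher (5.78%) and 125 lower (7.08%). Of the 233 clones at an unadjusted p under 0.05, 132 were also apart in both blocks.

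**Figure D1:**
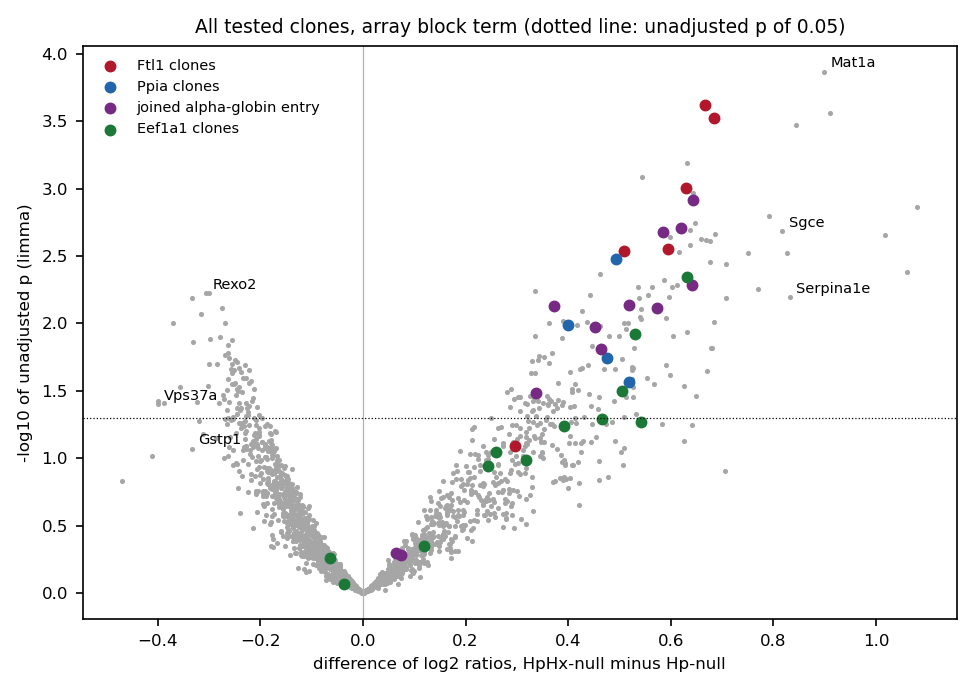
The horizontal axis is the difference of log2 ratios, HpHx-null minus Hp-null, and the vertical axis -log10 of the unadjusted limma p with the array block term, 1 point per tested clone; colours mark the clones of 4 entries. The right arm reaches 1.08 and the left arm -0.47, and the dotted line marks an unadjusted p of 0.05, which 233 of 1765 clones passed.

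The sign of each difference depends on how the ratios are read. Turning the whole table swaps every sign and changes no p. With the sign turned on the arrays whose null pool is labelled Cy3, 0 clones reached an unadjusted p under 0.05. The opposite sign was taken by 135 of the 163 higher and 44 of the 70 lower clones. Within each block the Hp-null arrays differ in labelled dye, as do the HpHx-null arrays. This turn therefore moved the block pattern into the spread within blocks, which the block term does not absorb. The SE of Ftl1 spot 20713 went from 0.14 to 0.70 and that of Mat1a from 0.16 to 0.63. The count of 0 therefore cannot show that no clone differed, and signs turned by dye carry this wider SE. With the sign turned on block 2, 0 clones passed after adjustment (lowest adjusted p = 0.14, limma) and 250 had an unadjusted p under 0.05, 79 higher and 171 lower. Only 11 of these 250 were among the 233. With no value missing, this turn sets the deposited group difference of block 1 against that of block 2. A clone with like differences in both blocks then falls near 0 with either sign. Directions below are those of the values as deposited.

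The positive differences went together with the pattern that splits the arrays. The mean of block 1 minus that of block 2 had a median of 0.91 for the 163 higher clones, -0.35 for the 70 lower clones and -0.10 for all clones. With the loadings in place of the blocks, 0 clones passed (lowest adjusted p = 0.24, limma). The unadjusted count became 172, with 95 higher and 77 lower, and 112 of these were among the 233 (87 higher, 25 lower).

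**Figure D2:**
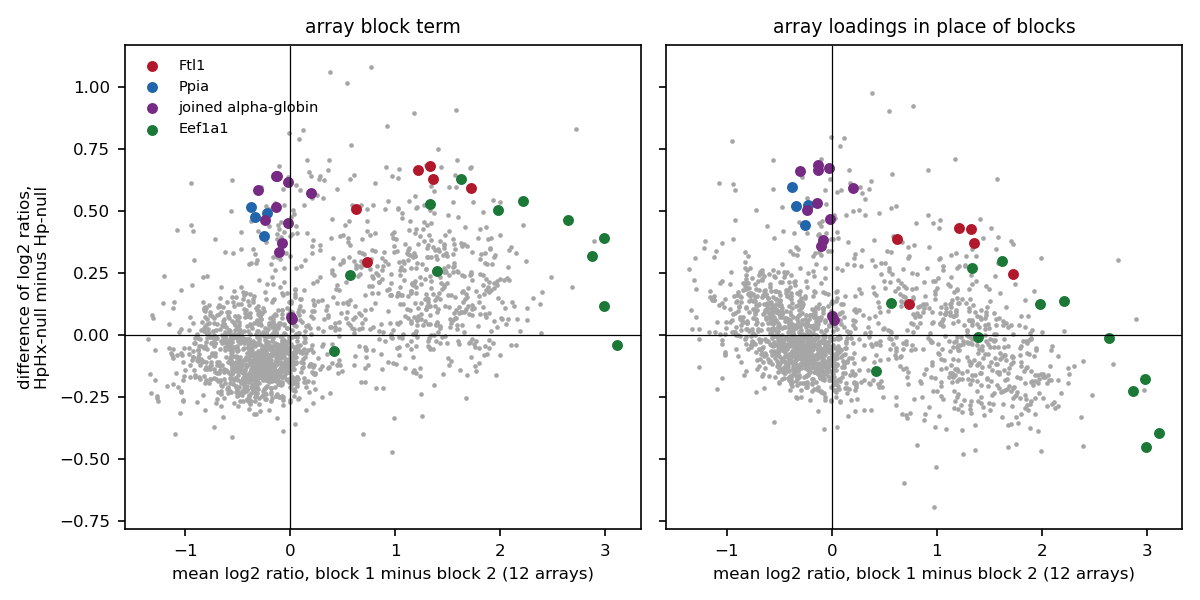
Each point is a tested clone, with the mean log2 ratio of block 1 minus block 2 over the 12 arrays on the horizontal axis and the difference of log2 ratios, HpHx-null minus Hp-null, on the vertical axis. With the block term (left) the clones at the right lie mostly above 0, and with the loadings (right) they spread to both sides, the Eef1a1 clones down to -0.45, while the Ppia and most joined alpha-globin clones keep values above 0.4.

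Ferritin light chain stood among the clones with the lowest p. Ftl1, which encodes that chain of the iron store, had 6 tested clones, and all 6 differences were above 0, from 0.30 to 0.68 with a median of 0.61. The clone at spot 20713, taken as the example, had the largest of the 6. Its log2 ratios in block 1 were -0.38 and -0.45 in Hp-null and -0.21 and 0.40 in HpHx-null. Its block 2 ratios were -1.98 and -1.75 in Hp-null and -1.004 and -1.002 in HpHx-null. Both HpHx-null arrays were higher within each block, although the groups overlapped across blocks. The difference was 0.68 (SE 0.14, 95% interval 0.38 to 0.99, adjusted p = 0.12, limma), or 1.61-fold, on an Hp-null mean of -1.14 ± 0.84 (SD, n = 4 arrays) and an HpHx-null mean of -0.46 ± 0.68 (SD, n = 4 arrays).

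The other Ftl1 clones repeated this order of the groups. Of the 6, 5 had an unadjusted p under 0.05 and 5 were apart in both blocks, beside 9.24% and 5.78% of all clones. Clones of 1 gene detect 1 transcript, so these are repeat readings and not separate genes. Their means ran from -1.19 to -0.60 in Hp-null and from -0.58 to -0.19 in HpHx-null. The median on the Hx-null arrays was -0.23. With the loadings the 6 differences ran from 0.13 to 0.43 and with quantile scaling from 0.12 to 0.44, all above 0. Turned by labelled dye they ran from -0.15 to 0.27, and turned on block 2 from -0.19 to 0.17. Without HpHx-null replicate 1, 3 of the Ftl1 clones passed, at 0.79 (adjusted p = 0.025), 0.80 (adjusted p = 0.0194) and 0.84 (adjusted p = 0.0126, limma). It was the only array whose removal let any clone pass with the block term, 8 of 1856. With the dye term 0 passed without it.

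**Figure D3:**
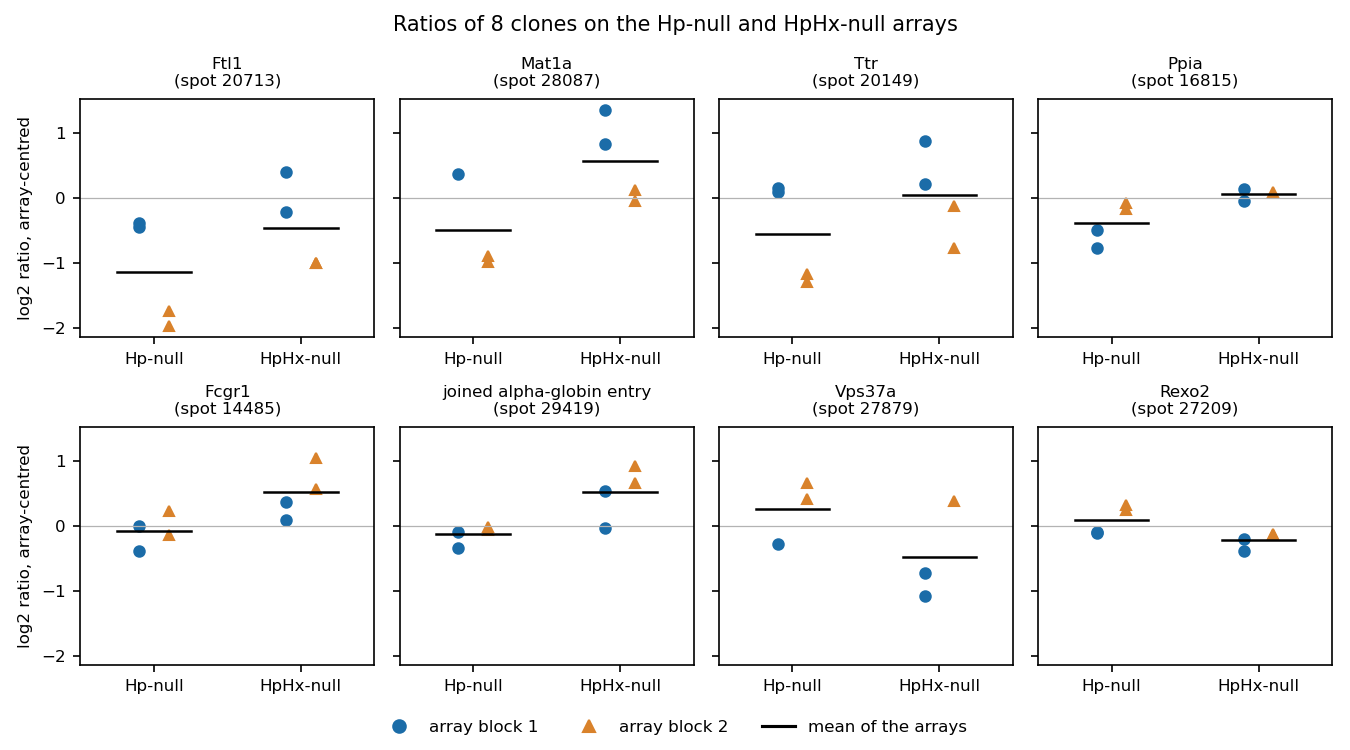
Log2 ratio of 8 clones, centred on each array, on the Hp-null and HpHx-null arrays; circles are block 1, triangles block 2, and bars the mean of the arrays with a value. For Ftl1 the block 2 arrays lie lower in both groups, from -1.98 to -1.002, and within each block the HpHx-null points lie above the Hp-null points.

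Among genes with at least 4 tested clones, Ftl1 and Ppia, described below, had all differences above 0. Rpl10 and Hcfc1, with 3 tested clones each, also had all differences above 0. For Ftl1 and Ppia the stretches of 250 bases before the start are printed as examples. They come from RefSeq (GRCm38.p6), Ftl1 from chr7:45459887-45460136 on the minus strand and Ppia from chr11:6415617-6415866 on the plus strand, 5′ to 3′. Capitals mark matches on either strand to the CCAAT box (CCAAT, read as ATTGG on the other strand) or to the core of the antioxidant response element (TGACNNNGC, read as GCNNNGTCA), the element bound by NRF2 in ferritin and glutathione genes.
Ftl1: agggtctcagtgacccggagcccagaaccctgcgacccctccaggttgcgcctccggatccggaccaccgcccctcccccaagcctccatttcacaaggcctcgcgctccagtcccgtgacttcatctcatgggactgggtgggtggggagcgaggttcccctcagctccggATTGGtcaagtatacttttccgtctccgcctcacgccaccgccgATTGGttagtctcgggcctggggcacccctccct
Ppia: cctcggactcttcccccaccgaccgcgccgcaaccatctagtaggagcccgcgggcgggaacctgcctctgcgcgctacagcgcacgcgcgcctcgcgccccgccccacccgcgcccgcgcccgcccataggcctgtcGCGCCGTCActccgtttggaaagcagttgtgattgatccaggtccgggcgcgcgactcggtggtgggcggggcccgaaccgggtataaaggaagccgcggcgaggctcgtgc
Ftl1 held 2 CCAAT matches and 0 matches to the response element core, and Ppia 0 and 1. Among 32851 such stretches in the RefSeq table, 33.85% held CCAAT and 10.16% the core, so either match is common and describes the letters only.

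The remaining heme and iron genes had differences of -0.11 to 0.28. In the list for iron handling, 5 of 9 tested clones had an unadjusted p under 0.05, all higher, beside 9.24% of all clones. All 5 were Ftl1, and the median of 0.51 beside -0.01 for all clones came from that gene. Fth1, the ferritin heavy chain, had a difference of 0.14. Slc39a14, an importer of zinc and of iron not bound to transferrin, had 0.02. Tfrc, the transferrin receptor, had -0.11 (SE 0.11, adjusted p = 0.66, limma). In the list for heme synthesis, uptake and breakdown, 0 of 3 clones reached an unadjusted p under 0.05, beside 9.24% higher and 3.97% lower of all clones. These were Hebp1, a heme-binding protein, at 0.28, Pgrmc1, a heme-binding membrane protein, at 0.13, and Urod, an enzyme of heme synthesis, at -0.10. Their median was 0.13.

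Mat1a had the lowest p of all clones. It encodes the liver enzyme that makes S-adenosylmethionine from methionine. Its Hp-null ratio in block 1 was 0.37, from replicate 3 alone because replicate 2 held no value, against 0.83 and 1.36 in HpHx-null. In block 2 the ratios were -0.98 and -0.89 in Hp-null and -0.04 and 0.12 in HpHx-null. Within each block every HpHx-null array was higher, and across blocks the groups overlapped. The difference was 0.90 (SE 0.16, 95% interval 0.55 to 1.25, adjusted p = 0.12, limma), or 1.86-fold. It was 0.71 with the loadings, -0.04 turned by labelled dye and -0.32 turned on block 2. Without HpHx-null replicate 1, the only array whose removal let any clone pass, it was 0.98 (adjusted p = 0.0273, limma).

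The other genes of amino acid and one-carbon breakdown had smaller estimates. Of the 7 tested clones for amino acid and one-carbon breakdown, Mat1a was the 1 clone with an unadjusted p under 0.05, and the list's median was -0.02. Of all clones, 9.24% were higher and 3.97% lower at that p. Bhmt, which remethylates homocysteine, had a difference of 0.24 (SE 0.14, adjusted p = 0.44, limma; loadings 0.04). Cdo1, which oxidises cysteine, had -0.16 (SE 0.12, adjusted p = 0.55, limma; loadings -0.39). Tdo2, which opens the tryptophan ring, had 0.12, and Gpt, Gldc and Shmt2 had -0.02, -0.04 and -0.09.

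Antioxidant genes were divided. Of 12 tested clones, 2 had an unadjusted p under 0.05, both higher, beside 9.24% of all clones, and 0 passed; 7 of the 11 genes lay above 0 and the list's median was 0.11. The loadings gave a median of 0.02, with 6 of 12 clones above 0. Selenop, the plasma carrier of selenium made by the liver, had block 1 ratios of 0.27 and 0.42 in Hp-null and 0.63 and 0.996 in HpHx-null. Its block 2 ratios were -0.82 and -1.19 in Hp-null and -0.35 and 0.15 in HpHx-null. The HpHx-null arrays were higher in both blocks, and the difference was 0.69 (SE 0.18, adjusted p = 0.18, limma; loadings 0.43; turned by dye -0.27 and on block 2 -0.22).

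Gstm1, a glutathione transferase, had -0.14 and 0.12 in block 1 of Hp-null and 0.59 and 0.53 in HpHx-null. Its block 2 ratios were -0.77 and -1.31 in Hp-null and -0.70 and -0.36 in HpHx-null. The groups were apart in each block, by a narrow margin in block 2, with a difference of 0.54 (SE 0.17, adjusted p = 0.24, limma; loadings 0.32; quantile scaling 0.27; turned by dye -0.14 and on block 2 0.03). Mgst1, the membrane-bound transferase, had a difference of 0.40 (SE 0.19, adjusted p = 0.37, limma), Prdx1, a peroxiredoxin, 0.35, and Gstm2 0.28. Catalase (Cat) had 0.12, the 2 clones of glutathione peroxidase Gpx1 0.04 and 0.09, Prdx2 -0.17, and Gstp1, the pi-class transferase, -0.33 (SE 0.18, adjusted p = 0.42, limma). With the loadings Cat was at -0.22, the Gpx1 clones at -0.22 and -0.01, and Gstp1 at -0.53. The metallothioneins, which bind zinc and copper, lay near 0, with Mt1 at -0.10 (SE 0.10) and Mt2 at -0.01 (SE 0.11).

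Another selenoprotein, Selenow, was named, like Selenop, by the rule that asks for clones apart in both blocks. It had 0.19 and 0.81 in block 1 of Hp-null, 0.90 and 1.18 in block 1 of HpHx-null, -0.98 and -1.13 in block 2 of Hp-null and -0.58 and 0.40 in block 2 of HpHx-null. Within both blocks the HpHx-null arrays were higher. The difference was 0.75 (SE 0.21, adjusted p = 0.18, limma), and it was 0.47 with the loadings, -0.19 turned by dye and -0.21 turned on block 2.

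Transcripts of 6 proteins that hepatocytes secrete had differences above 0 with the block term, and 5 of the 6 with the loadings. The 6 tested genes, each with 1 clone, ran from 0.28 to 0.83 with a median of 0.42, beside -0.01 for all clones, and 2 of the 6 had an unadjusted p under 0.05, both higher, beside 9.24% of all clones. With the loadings the median was 0.23. Because the liver was measured whole, a change in the number of cells of a type and a change in RNA per cell cannot be told apart. Ttr, the carrier of thyroxine and of retinol-binding protein, had block 1 ratios of 0.09 and 0.15 in Hp-null and 0.21 and 0.88 in HpHx-null. In block 2 it had -1.16 and -1.29 in Hp-null and -0.77 and -0.12 in HpHx-null. The groups were apart within each block, and the difference was 0.60 (SE 0.18, adjusted p = 0.21, limma; loadings 0.35; quantile scaling 0.34; turned by dye -0.35 and on block 2 -0.18).

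Serpina1e, an alpha-1-antitrypsin gene of a near-identical family whose members cDNA probes may not separate, showed the strongest block pattern of these. Its block 1 ratios were 1.73 and 2.37 in Hp-null and 2.32 and 2.83 in HpHx-null, and its block 2 ratios -0.72 and -1.23 in Hp-null and -0.10 and 0.42 in HpHx-null. In block 1 the groups overlapped, and in block 2 the HpHx-null arrays were higher. The difference of 0.83 (SE 0.26, adjusted p = 0.21, limma) was 0.30 with the loadings, 0.48 with quantile scaling, -0.23 turned by dye and -0.30 turned on block 2. Bche, butyrylcholinesterase, had 0.43 (SE 0.22), albumin (Alb) 0.42, Apoa1, the main protein of high-density lipoprotein, 0.35, and the growth factor Igf1 0.28. With the loadings these were 0.20, 0.14, -0.015 and 0.26. All of these had an unadjusted p above 0.05. The hepatocyte markers Serpina1e, Ttr, Alb and Apoa1 had a median of 0.51, and of 0.22 with the loadings.

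Markers of other liver cells were few on the array. No tested clone with 1 gene symbol stood for erythroid, endothelial, cholangiocyte, stellate or lymphocyte markers. The alpha-globin genes Hba-a1 and Hba-a2, counted as erythroid markers, appear in the joined entry described next. The part of erythroid cells in any difference was not tested. Fcgr1, the high-affinity Fc receptor of macrophages, had -0.39 and -0.01 in block 1 of Hp-null and 0.09 and 0.37 in HpHx-null. In block 2 it had 0.23 and -0.14 in Hp-null and 0.57 and 1.05 in HpHx-null. The groups were apart within each block but overlapped across them. The difference was 0.60 (SE 0.16, adjusted p = 0.18, limma), 0.64 with the loadings, 0.45 without HpHx-null replicate 3, -0.18 turned by dye and -0.17 turned on block 2. Fcer1g, the chain that Fc receptors share, had -0.09 (SE 0.16), and the neutrophil granule gene Ltf -0.01. With 1 of 2 macrophage markers on each side of 0, the part of macrophages in any difference was not tested.

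One annotation entry joins the alpha-globin genes Hba-a1 and Hba-a2 with the histone gene H3f3a, so its clones are not assigned to any of them. Its 12 tested clones all had differences above 0, from 0.06 to 0.64 with a median of 0.49; 10 had an unadjusted p under 0.05 and 8 were apart in both blocks, beside 9.24% and 5.78% of all clones on the higher side. The clones were not alike on the Hx-null arrays. Spots 5359, 19055 and 24847 had Hx-null means of 0.05, 0.06 and 0.17, and the lowest of the other clones was 0.89 (spot 11139). The differences at spots 5359, 19055 and 24847 were 0.37, 0.07 and 0.06. Which gene of the entry each clone detects was not tested. The clones therefore cannot all be taken as repeat readings of 1 transcript, nor as 12 separate results. The clone at spot 29419, taken as the example, had the largest of the 12 differences. It had -0.34 and -0.10 in block 1 of Hp-null against -0.03 and 0.53 in HpHx-null. Its block 2 ratios were -0.01 and -0.06 in Hp-null against 0.65 and 0.91 in HpHx-null. Its HpHx-null values were higher within each block, with replicate 1, at -0.03, below the highest Hp-null value of block 2.

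The difference at spot 29419 was 0.64 (SE 0.15, 95% interval 0.31 to 0.98, adjusted p = 0.18, limma), and 0.54 without HpHx-null replicate 3. Unlike Ftl1, the entry hardly took part in the split of the arrays, with block contrasts from -0.30 to 0.20, and its median difference with the loadings was 0.52. Over the 12 clones the median ratio was -0.12 in Hp-null, 0.37 in HpHx-null and 1.08 in Hx-null, and this Hx-null median does not describe spots 5359, 19055 and 24847. A value was missing on at least 1 of the 8 arrays for 6 of the clones. Turned by labelled dye the differences ran from -0.16 to 0.21, and turned on block 2 from -0.18 to 0.39. Without HpHx-null replicate 1, the only array whose removal let any clone pass, 2 of the clones passed. They were at 0.74 (adjusted p = 0.0273) and 0.80 (adjusted p = 0.0259, limma).

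Ppia, cyclophilin A, a proline isomerase often used as a reference gene, had 4 tested clones with differences of 0.40 to 0.52. All 4 had an unadjusted p under 0.05 and 2 were apart in both blocks, beside the same 9.24% and 5.78%. At spot 16815, the Ppia clone with the lowest p, the block 1 ratios were -0.77 and -0.49 in Hp-null and -0.05 and 0.14 in HpHx-null. The block 2 ratios were -0.08 and -0.18 in Hp-null and 0.10 in HpHx-null, where replicate 3 held no value. Every HpHx-null array with a value was above every Hp-null array for this clone. For the other Ppia clones, spots 6415, 11615 and 27217, the groups overlapped across blocks. The difference was 0.49 (SE 0.13, adjusted p = 0.19, limma). With the loadings the 4 clones ran from 0.45 to 0.60, turned by dye from -0.46 to 0.08 and turned on block 2 from -0.13 to 0.39.

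**Figure D4:**
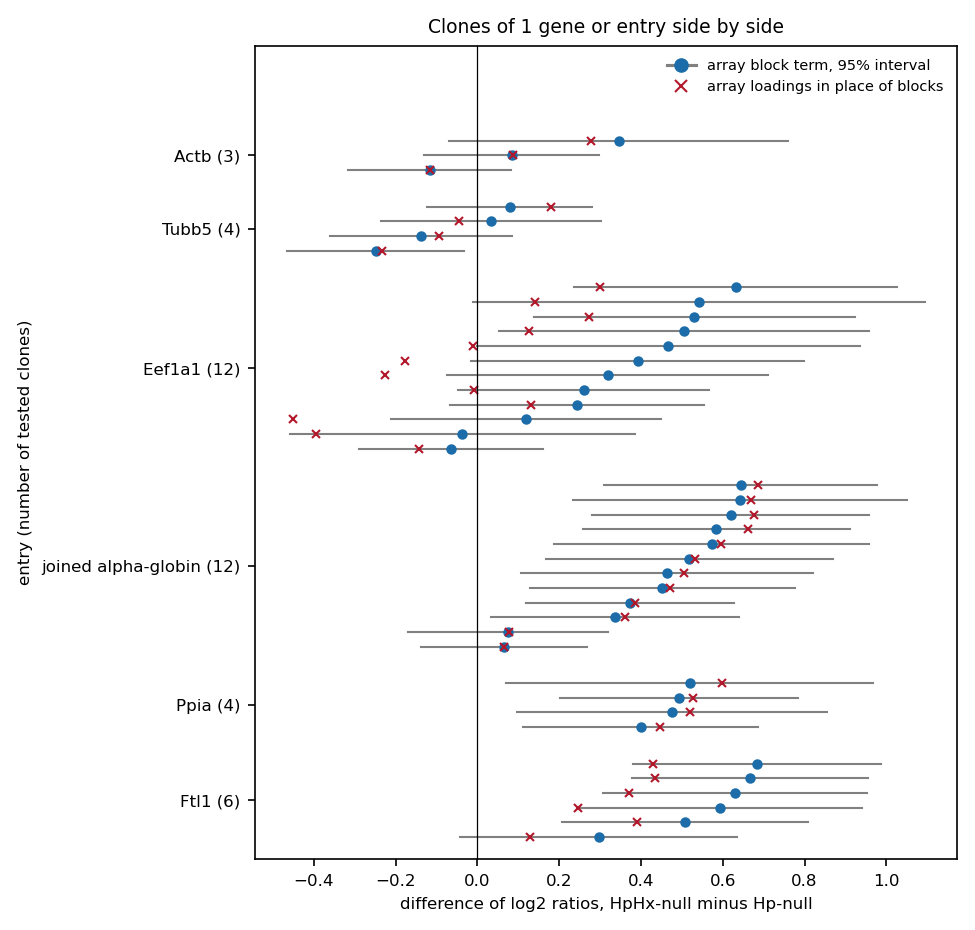
Difference of log2 ratios, HpHx-null minus Hp-null, for every tested clone of 6 entries; dots and lines are the estimate and 95% interval with the array block term, and crosses the estimate with the array loadings. All 6 Ftl1, 4 Ppia and 12 joined alpha-globin dots lie above 0, while for Eef1a1 the crosses scatter from -0.45 to 0.30.

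Clones of Eef1a1, the elongation factor that brings aminoacyl-tRNA to the ribosome, disagreed with each other. Of 12 clones, 10 had differences above 0, beside 46.9% of all clones. The 12 ran from -0.06 to 0.63 with a median of 0.36. An unadjusted p under 0.05 was reached by 3, all higher, beside 9.24% of all clones. With the loadings the median was -0.01 and 5 of 12 lay above 0. These clones had block contrasts of up to 3.11. At spot 3607 the difference was 0.63 (SE 0.18, adjusted p = 0.21, limma), without a value on HpHx-null replicate 4, and it was 0.30 with the loadings and 0.37 with quantile scaling.

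Other genes of protein synthesis lay on both sides of 0. Among ribosomal proteins 2 of 25 clones had an unadjusted p under 0.05, both higher, which is near the 9.24% of all clones, and the median was 0.02. Rps2, of the small subunit, had -0.93 and -0.42 in block 1 of Hp-null, -0.48 and -0.09 in block 1 of HpHx-null, -1.45 and -0.40 in block 2 of Hp-null and 0.07 and 0.03 in block 2 of HpHx-null. The groups overlapped in block 1 and were apart in block 2, and the difference was 0.68 (SE 0.22, adjusted p = 0.24, limma; loadings 0.71). The 3 clones of Rpl10, of the large subunit, ran from 0.29 to 0.37. Among translation factors other than Eef1a1, Tpt1 had 0.33 (SE 0.15) and Pabpc1, the poly(A)-binding protein, -0.26 (SE 0.10, adjusted p = 0.31, limma).

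For the chaperones, 1 of 6 clones had an unadjusted p under 0.05, on the higher side, beside 9.24% of all clones. Hspa5, the chaperone BiP of the endoplasmic reticulum, had -0.34 and 0.29 in block 1 of Hp-null and 0.35 and 0.71 in HpHx-null. Its block 2 ratios were -1.14 and -0.97 in Hp-null and -0.72 and -0.24 in HpHx-null. The groups were apart in both blocks, with a difference of 0.56 (SE 0.17, adjusted p = 0.21, limma; loadings 0.33; quantile scaling 0.34; -0.01 under either turned sign). Other chaperones were closer to 0, with Pdia3 at 0.17, the 2 clones of Hspa8 at 0.13 and 0.14, Calr at 0.09 and Hsp90aa1 at -0.18. With the loadings Pdia3 and Calr were at -0.05 and -0.09.

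In oxidative phosphorylation 3 of 22 clones were higher and 1 lower at an unadjusted p under 0.05, near the 9.24% and 3.97% of all clones, and the median was -0.03. The higher ones were the ATP synthase genes Atp5md (0.41), Atp5g1 (0.36) and Atp5b (0.29), and the lower one was Cox4i1 of cytochrome oxidase (-0.26). With the loadings Atp5b was at 0.01. Clones of Atp5a1, another ATP synthase subunit, ran from -0.14 to -0.01. In central carbon metabolism the 2 clones of Gapdh had 0.34 (SE 0.12) and -0.09 (SE 0.10). Those of Tkt, the transketolase, had -0.23 (SE 0.10) and -0.00 (SE 0.13). Whether the clones of either gene differ from each other was not tested. Fatty acid oxidation and lipid synthesis had 0 of 4 and 0 of 2 clones at an unadjusted p under 0.05. With the loadings the median of the 4 clones for fatty acid oxidation and peroxisome moved from -0.03 to -0.38, with Scp2, a sterol carrier whose longer form is a peroxisomal thiolase, from 0.01 and -0.08 to -0.45 and -0.47.

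The 10 largest positive differences among named genes with an unadjusted p under 0.05 and apart in both blocks also held 3 genes outside these groups. Sgce, epsilon-sarcoglycan, had -0.39 and 0.01 in block 1 of Hp-null against 0.64 in HpHx-null, without a value on replicate 4. Its block 2 ratios were 0.21 and -0.33 against 0.29 and 1.11. The 3 HpHx-null arrays were above all 4 Hp-null arrays, and the difference was 0.82 (SE 0.21, adjusted p = 0.18, limma; loadings 0.80; 0.59 without HpHx-null replicate 3; turned by dye -0.07 and on block 2 -0.14). Zfp612, a zinc finger gene, had 0.62 (SE 0.17) and Apbb2, which binds the amyloid precursor protein, 0.59 (SE 0.19); these were 0.78 and 0.49 with the loadings, and 0.51 and 0.35 without HpHx-null replicate 3.

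The lower differences were smaller, and 0 of them reached 1.5-fold. Vps37a, of the ESCRT-I complex that sorts membrane proteins for breakdown, had the largest of the 10 named by the rule. Its ratios were -0.28 in Hp-null and -1.08 and -0.74 in HpHx-null in block 1, and 0.40 and 0.66 in Hp-null and 0.38 in HpHx-null in block 2, with no value on replicate 2 of either group. The margin in block 2 was narrow, and the difference was -0.40 (SE 0.17, adjusted p = 0.35, limma; loadings -0.22; turned by dye -0.36 and on block 2 -0.31).

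Rexo2, a nuclease of short RNA in mitochondria, had the lowest p of these 10. In block 1 it had -0.10 and -0.12 in Hp-null and -0.21 and -0.39 in HpHx-null. In block 2 it had 0.33 and 0.25 in Hp-null and -0.14 and -0.13 in HpHx-null. All HpHx-null arrays were below all Hp-null arrays. The difference was -0.31 (SE 0.09, 95% interval -0.51 to -0.10, adjusted p = 0.21, limma; loadings -0.25; turned by dye 0.02 and on block 2 0.11).

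The other 8 of these genes had differences of -0.33 to -0.26. They were Akt1s1, the PRAS40 inhibitor of mTOR complex 1, at -0.33, the pore-forming protein gene Pfpl at -0.27, Prom1, which encodes prominin-1, at -0.27, Slc39a7, a zinc exporter of the endoplasmic reticulum and Golgi, at -0.27, the NF-kappaB subunit Rela at -0.26, Rbbp6, a ubiquitin ligase, at -0.26, Fblim1, a filamin-binding adaptor, at -0.26, and Pabpc1 at -0.26. With the loadings the values of Rela and Prom1 were -0.07 and -0.13.

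Some further lists had more genes below 0 than above with the block term, without a clone that passed. For RNA binding, splicing and helicases 18 of 24 genes lay below 0, and the median was -0.10. In this list 1 of 27 clones, the splicing factor Sf3b1 at -0.24, had an unadjusted p under 0.05. That is near the 3.97% of all clones that were lower. For vesicle traffic 11 of 15 genes lay below 0 with a median of -0.06, but with the loadings 11 of 15 clones lay above 0 and the median was 0.07. For the mitochondrial ribosome, import and carriers 9 of 13 genes lay below 0 with a median of -0.05, and Mrpl1 had -0.24. By clones, 6 of 27, 4 of 15 and 4 of 13 of these lists in turn lay above 0, beside 46.9% of all clones with a median of -0.01. With the loadings, 11 of 27 clones of the RNA binding list and 6 of 13 of the mitochondrial list lay above 0. Whether these lists differ from the whole table was not tested. For ubiquitin and proteasome 0 of 24 clones had an unadjusted p under 0.05, beside 9.24% higher and 3.97% lower of all clones. In the cytoskeleton Cfl1, an actin-severing protein, had -0.23 and 1 of 4 Tubb5 clones -0.25. Rbbp5, of the histone H3 lysine methyltransferase complexes, had 0.52 (SE 0.20, adjusted p = 0.31, limma). H2-Ke6, counted with the MHC genes by its name only, encodes a steroid dehydrogenase and had -0.26.

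**Figure D5:**
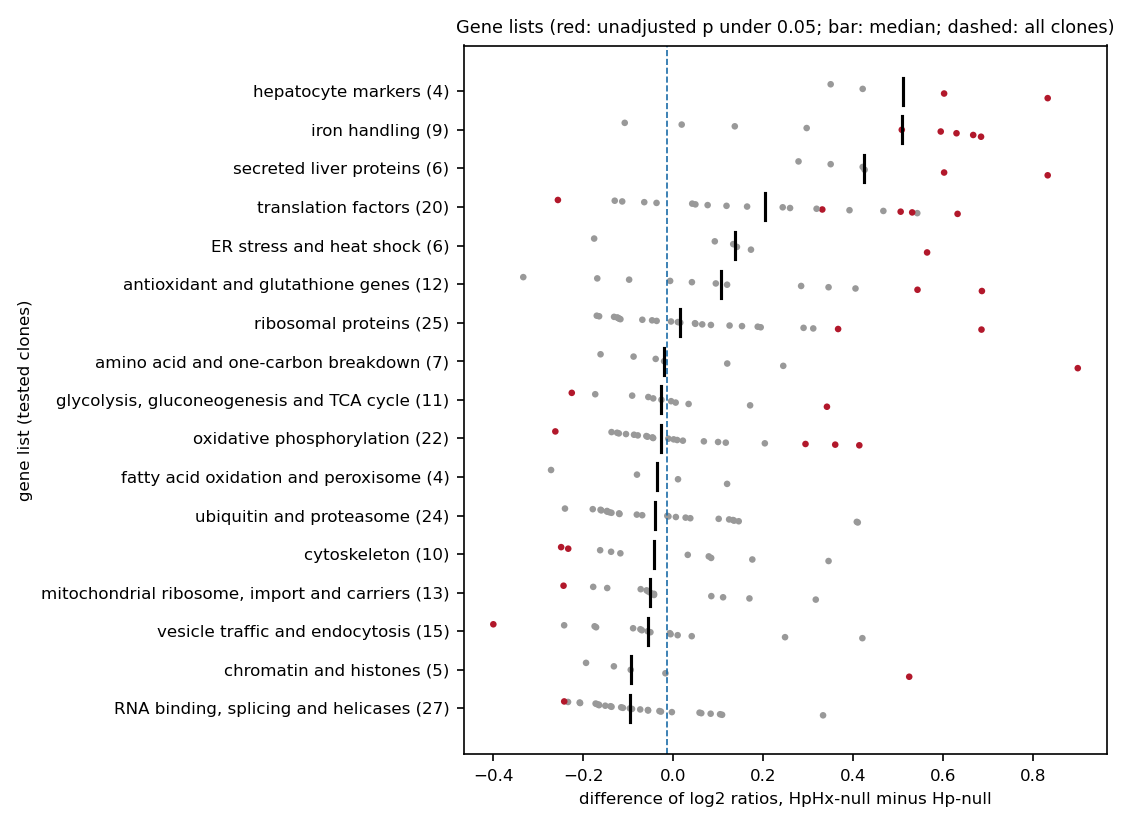
Difference of log2 ratios, HpHx-null minus Hp-null, of the clones of each gene list with at least 4 tested clones; red points had an unadjusted p under 0.05, bars are the list's median and the dashed line the median of all clones, -0.01. Hepatocyte markers, iron handling and secreted liver proteins have the highest medians, 0.51, 0.51 and 0.42, and the RNA binding list the lowest, -0.10.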

How the data were processed

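Per the labels' protocols, null and wild-type liver pools were labelled with Cy3 or Cy5 and hybridised to spotted arrays with swapped dyes. The authors deposited 1 table of log ratios, read here as log2 values; the sources used here do not give the scaling, spot filter, log base, direction or genome build. Of 31200 spots 4167 held a value, 3009 to 4165 per array. Arrays were centred on their median, duplicate spots averaged (correlations 0.90 to 0.98), and spot k named from spot 31201 minus k of the platform annotation. All 12 arrays were fitted in limma 3.58.1 (R 4.3.3) with robust eBayes, 1 coefficient per genotype and a term for the labelled dye or for the array block, with Benjamini-Hochberg adjustment over 1765 clones. The array number limits the precision, and the steps were tested on simulated data.

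Named are the 10 largest higher and 10 largest lower genes with an unadjusted p under 0.05 that were apart in both blocks, a chosen set of heme, iron, antioxidant and liver genes, clones that passed with 1 array left out, entries with at least 4 clones, and list members with an unadjusted p under 0.05; other list members are added for context, chosen after their values were seen. Members and the 36 lists, 25 with a tested clone, were chosen with earlier results of these data known. The lists for urea cycle, acute phase, cytochrome P450, bile acids, circadian clock and pancreas had 0 tested clones. A RefSeq promoter stretch was available for 633 tested genes with 1 symbol, and matches are given for Ftl1, Ppia and the whole set of stretches. Alternatives are in the closing section.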

Additional observations from a re-analysis of the deposited data

Results flagged for a closer look

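The number of spots with a value was low on Hp-null replicate 2, at 3522 against 4095 to 4165 on the other Hp-null arrays. The gap took 0.891 of the group's range, above Dixon's 95% critical value for 4 samples. Of 89 groups tested it was the 1 that stood out, where chance alone gives about 1 in 20. The clones of Mat1a and Vps37a held no value on this array. Without it 0 clones passed with either term, and 309 were apart in both blocks.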

How the results depend on the processing

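Of 50 differences of named clones, 31 had an unadjusted p under 0.05; of their 589 values under the alternatives 529 kept direction and side of the threshold, 8 passed it and 52 took the opposite sign, 1 of these under a setting that turned no sign. The loadings reversed 0 of the 31. The count of 0 clones that passed held for both terms under uncentred values, quantile scaling, the 8 arrays alone, plain eBayes, an unmoderated test, no dye or block term, stricter and looser value minima, and gene averages by either numbering. With the block term it also held for the loadings and, as an alternative added after the data were seen, for the loadings without HpHx-null replicate 3. Quantile scaling moved 22 of the 50 differences by over 1.5 times or across 0, 10 of them among the 31, where all 10 became smaller (Ftl1 spot 20713 0.43, Ftl1 spot 3867 0.24, Ttr 0.34, Gstm1 0.27, Serpina1e 0.48), while Gstp1 became -0.58. With 1 array left out, the clones that passed with the block term numbered 0 to 8, the 8 without HpHx-null replicate 1 and all of them higher, against 0 with the dye term, and clones apart in both blocks 257 to 554, with 554 without Hp-null replicate 3 and 466 without HpHx-null replicate 1. Clones measured on all 12 arrays numbered 1162, of which 143 were apart and 1126 had an interval inside a 2-fold difference. Same-numbered arrays of the groups compared lay in opposite blocks and deviated in opposite directions (correlations -0.85 to -0.69). These correlations therefore cannot show whether replicate numbers pair the samples. A replicate block called 0, put 1066 intervals inside a 2-fold difference and gave Ftl1 spot 3867 -0.0049. Each replicate number held arrays of both blocks, so this term did not fully absorb the block pattern. Spot 3867 also held no value on HpHx-null replicate 4, an array of block 1. The cause of the other changes was not tested.

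With the sign turned on arrays whose null pool is labelled Cy3, the differences became -0.072 for Sgce, -0.14 for Gstm1, -0.30 for Apbb2, -0.15 for Ftl1 spot 10313, 0.020 for Pabpc1, -0.27 for Selenop, 0.046 for Prom1, -0.18 for Fcgr1 and -0.075 for Ftl1 spot 15513. They were 0.14 for Slc39a7, -0.35 for Ttr, -0.11 for Ftl1 spot 20713, -0.0077 for Hspa5, -0.19 for Zfp612, 0.093 for Rbbp6, 0.095 for Fblim1, -0.19 for Selenow and -0.23 for Serpina1e. They were 0.017 for Rexo2, 0.014 for Pfpl, -0.017 for the unnamed spot 27401, -0.16 for the joined alpha-globin entry spot 27445, -0.042 for Mat1a, 0.079 for Rela and -0.16 for the joined alpha-globin entry spot 29419. With the sign turned on block 2, they became -0.14 for Sgce, -0.11 for Apbb2, -0.18 for Ftl1 spot 10313, 0.11 for Pabpc1, -0.22 for Selenop, 0.19 for Prom1, -0.17 for Fcgr1, -0.026 for Ftl1 spot 15513 and 0.060 for Slc39a7. They were also -0.18 for Ttr, -0.18 for Ftl1 spot 20713, -0.0057 for Hspa5, -0.37 for Zfp612, -0.19 for Ftl1 spot 23337, 0.11 for Rbbp6, 0.042 for Fblim1, -0.21 for Selenow and -0.30 for Serpina1e. They were also 0.11 for Rexo2, 0.036 for Pfpl, 0.052 for Akt1s1, -0.11 for the unnamed spot 27401, -0.068 for the joined alpha-globin entry spot 27445, -0.32 for Mat1a, -0.51 for the unnamed spot 28311 and -0.18 for the joined alpha-globin entry spot 29419. Turned by labelled dye, the SE was 0.70 for Ftl1 spot 20713, 0.63 for Mat1a and 1.16 for Serpina1e. Turned on block 2, it was 0.30, 0.31 and 0.36. With no value missing, a turned estimate sets the group difference of the turned arrays against that of the other arrays. For a clone with like differences in both, it is small and takes either sign. Which sign of the arrays is right was not tested.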

Other observations

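The 3 clones whose estimate passed 2-fold carried no gene symbol, and they are given here after their values were seen. Spot 12517 had a difference of 1.08 (SE 0.27, adjusted p = 0.18, limma), spot 24881 of 1.02 (SE 0.27) and spot 30591 of 1.06 (SE 0.31), all higher in HpHx-null. With the loadings they were 0.93, 0.90 and 0.98, without HpHx-null replicate 3 0.85, 0.80 and 0.82, and turned on block 2 -0.65, -0.60 and -0.63. On all 3 the lowest Hp-null ratio was that of replicate 1, at -1.74, -1.27 and -1.42. Of the clones without a symbol, 90 were higher and 28 lower at an unadjusted p under 0.05, beside 61 and 39 of the clones with 1 symbol.

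Without HpHx-null replicate 1, the 8 clones that passed also included 2 clones with no symbol, spot 27401 at 0.74 (SE 0.13, adjusted p = 0.0403, limma) and spot 28311 at 1.03 (SE 0.16, adjusted p = 0.0259). On all 4 arrays of each group, spot 27401 had ratios of -0.57 to 0.06 in Hp-null and of 0.15 to 0.69 in HpHx-null, so that the groups did not overlap.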
